A study of Mus musculus with 15 samples.

Results

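The genes described here were 3 cytochrome P450 genes that the liver expresses mainly around the central vein, Cyp2e1, Cyp1a2 and Cyp2a5, together with the aryl hydrocarbon receptor gene Ahr, its partner Arnt, and Por, the gene of the reductase that feeds electrons to P450 enzymes. They were taken by symbol from a count table of 55984 genes. All 6 were listed there, and all 6 were among the 17488 genes that had enough counts to be tested. The study sorted hepatocytes from 4 wild-type adult male C57BL/6JJcl mice by their Hoechst fluorescence and profiled each sorted population by RNA-seq. The 2n-whole population held diploid cells and 4n-whole held all tetraploid cells. The 4n cells were also split by the peak height of the Hoechst signal into 4n-bottom, enriched for binucleated cells, and 4n-top, enriched for mononucleated cells. The 4n-top fraction still held many binucleated cells, so 4n-top against 4n-bottom compared a shifted mixture rather than pure nuclear states. No mouse received a treatment, and all cells were exposed to collagenase, to the Hoechst dye and to reserpine, which keeps the dye inside cells. After sorting, 2n cells were pelleted at a higher centrifugal force than 4n cells, and this step cannot be told apart from ploidy in any comparison with 2n-whole.

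The data were 15 libraries, 4 each of 2n-whole, 4n-whole and 4n-bottom and 3 of 4n-top. The study left out the 4n-top sample of mouse 1 for poor RNA quality, and the count table does not hold it. Libraries of the same mouse number came from the same animal. Total counts ran from 22049498 to 42096421 per library, so that 3 counts, the detection limit used here, stood for 0.0693 to 0.120 CPM, the counts of a gene divided by the library total in units of 1e6. CPM values here are scaled by the trimmed mean of M values (TMM) and are relative to the RNA of each library, and the detection limit covers counting error only. The shares of mitochondrial genome counts were 20.5% to 26.2% in 2n-whole and 8.84% to 23.6% in the 4n libraries, and the part of this difference in the results below was not tested beyond refits without those genes. The 5 hepatocyte markers (Alb, Ttr, Apoa1, Trf and Serpina1c) summed to 74929 to 102718 CPM in every library, and 1 of them, Serpina1c, was lower in 4n-whole than in 2n-whole (log2 fold change -0.83, edgeR adjusted p = 0.000541). The summed levels of the endothelial, Kupffer cell, stellate cell and lymphocyte marker lists stayed at or below 20.0, 6.67, 4.90 and 0.664 CPM. The 5 cholangiocyte markers summed to 34.6 to 47.4 CPM in 2n-whole and to 16.404 to 32.0 CPM in the 4n libraries. In 4n-whole the cholangiocyte markers Spp1 and Sox9 were lower than in 2n-whole (-2.81 and -0.62, edgeR adjusted p = 2e-05 and 0.00229), and Spp1 was also lower in 4n-bottom (-1.90, adjusted p = 0.0072) and 4n-top (-2.73, adjusted p = 0.000266). Krt19 was at 0 in 3 of 4 4n-whole libraries, and the part of these cells in the results was not tested.

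Cytochrome P450 enzymes sit in the endoplasmic reticulum and oxidise drugs, toxins and steroids with electrons that NADPH-cytochrome P450 reductase, the product of Por, passes on from NADPH. In the liver lobule many of them are made mainly by pericentral hepatocytes, under control of Wnt/β-catenin signalling, and this is why paracetamol and carbon tetrachloride injure the cells around the central vein. The aryl hydrocarbon receptor waits in the cytoplasm with HSP90 and further chaperones, enters the nucleus when it binds a ligand, pairs with ARNT and switches on genes such as Cyp1a1 and Cyp1a2.

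The stretches before the transcription starts of the 3 P450 genes are shown because these genes moved together, and that of Por because it held the letters of the receptor's recognition core 3 times. Each is the 250 bases before the start from RefSeq (table build GRCm38.p6), placed in GRCm39 by an exact match that occurred once on its chromosome. RefSeq windows were found for 5 of the 6 genes. Capitals mark 5 motifs searched on either strand, whose letters stand beside their positions after the sequences. A motif on the other strand appears as its reverse complement.
Cyp2e1, chr7:140343482-140343731, + strand: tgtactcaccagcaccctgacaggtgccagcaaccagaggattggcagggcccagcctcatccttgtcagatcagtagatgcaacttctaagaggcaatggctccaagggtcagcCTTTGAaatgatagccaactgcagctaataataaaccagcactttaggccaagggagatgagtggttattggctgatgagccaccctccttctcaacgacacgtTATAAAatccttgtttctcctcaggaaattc
Cyp1a2, chr9:57590939-57591188, − strand: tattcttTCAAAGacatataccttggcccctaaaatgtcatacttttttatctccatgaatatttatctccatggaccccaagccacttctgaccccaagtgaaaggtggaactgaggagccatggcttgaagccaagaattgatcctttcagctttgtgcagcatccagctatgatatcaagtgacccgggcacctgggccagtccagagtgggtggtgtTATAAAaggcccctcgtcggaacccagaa
Cyp2a5, chr7:26534514-26534763, + strand: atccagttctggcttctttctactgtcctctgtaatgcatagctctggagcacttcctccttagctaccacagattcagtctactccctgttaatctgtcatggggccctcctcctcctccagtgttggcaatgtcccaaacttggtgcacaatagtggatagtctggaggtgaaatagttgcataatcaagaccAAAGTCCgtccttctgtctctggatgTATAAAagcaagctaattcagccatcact
Por, chr5:135717749-135717998, + strand: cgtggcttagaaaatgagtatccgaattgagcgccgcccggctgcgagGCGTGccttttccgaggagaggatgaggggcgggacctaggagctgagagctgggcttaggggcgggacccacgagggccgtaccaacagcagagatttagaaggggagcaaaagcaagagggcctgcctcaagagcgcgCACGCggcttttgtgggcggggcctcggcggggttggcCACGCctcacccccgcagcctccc

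All 3 P450 windows held the core promoter motif known as the TATA box, spelled TATAAA, between 31 and 24 bases before the start, while neither Por nor Arnt did. Among 32851 RefSeq promoter windows of the same length, 12.37% held these letters. The core of sites of TCF, the DNA-binding partner of β-catenin, spelled CTTTGA, stood 135 to 130 bases before the start in Cyp2e1 and 243 to 238 bases before it, on the other strand, in Cyp1a2, and it occurred in 13.8% of all windows. Cyp2a5 held the HNF4 letters, spelled AAAGTCC, 55 to 49 bases before the start, found in 3.58% of all windows. The dioxin response element core, spelled GCGTG and known as the site of the receptor with ARNT, occurred 3 times in Por and once in Arnt but not in the P450 windows. Of all windows 28.2% held it at least once, and how many held it 3 times was not counted. Bases further upstream of the P450 genes were not searched. The E-box of USF proteins, spelled CACGTG and present in 6.02% of all windows, was in none of the 5. No matches overlapped, and a match of letters is a description, not a bound site. The Por window lies at a start 19112 bases downstream of the first start in GENCODE.

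**Figure D1:**
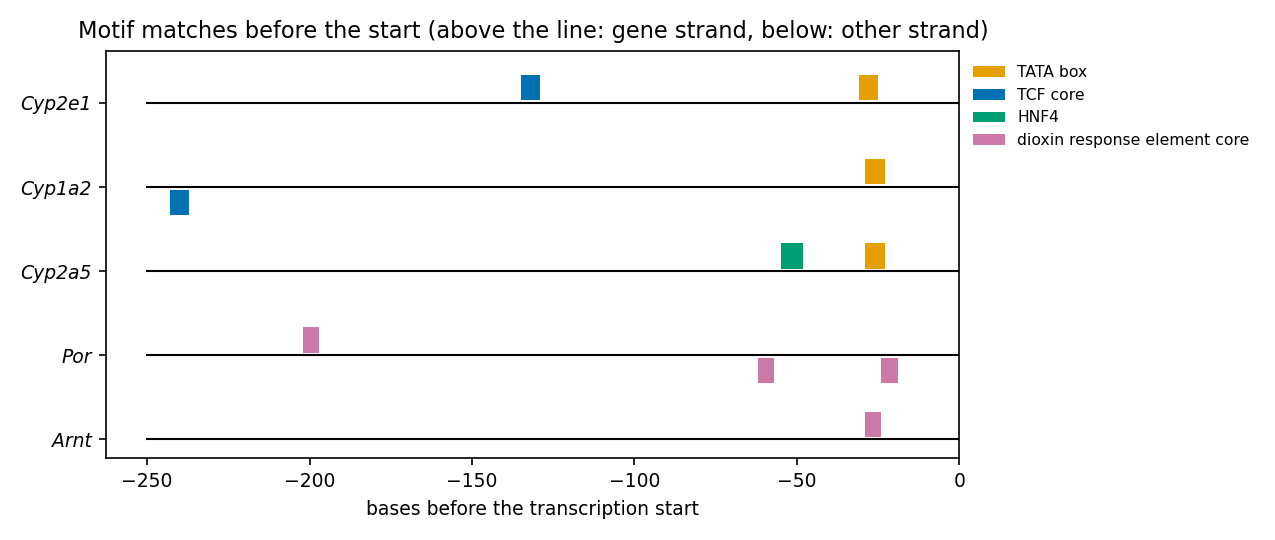
Positions of motif matches in the 250 bases before the RefSeq transcription start of 5 genes. The x axis gives bases before the start, each line is a gene, boxes above a line are on the gene's strand and boxes below it on the other strand, and colours name the motif. The TATA boxes of the 3 P450 genes line up within 31 to 24 bases of the start.

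Cyp2e1, which oxidises ethanol and small solvents and turns paracetamol into its toxic quinone imine, lies on GRCm39 chromosome 7 from 140343652 to 140355167 (+ strand, 9 exons, identifier ENSMUSG00000025479.11 in GENCODE M39). In 2n-whole its level was 264, 292, 513 and 429 CPM in mice 1 to 4. In 4n-whole it was 1523, 432, 1823 and 1602 CPM in the same mice. Mice 1, 3 and 4 thus lay far above every 2n-whole library, and mouse 2 lay within the 2n-whole range. In 4n-bottom the level was 510, 420, 1019 and 1056.5 CPM. In 4n-top it was 448, 2188 and 1637 CPM in mice 2, 3 and 4. The 4n libraries exceeded the 2n-whole library of their own mouse in every case, by 1.48-fold to 5.76-fold in 4n-whole, although the groups overlapped across mice. Of all tested genes, 11.7%, 10.1% and 17.9% were higher in every mouse in 4n-whole, 4n-bottom and 4n-top.

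Cyp1a2, which oxidises caffeine and aromatic amines and is a known target of the aryl hydrocarbon receptor, lies on chromosome 9 from 57584196 to 57590986 (− strand, 7 exons, ENSMUSG00000032310.6). Its start is 4225 bases from that of Cyp1a1, which runs the other way. It had 124, 96.2, 123 and 144 CPM in 2n-whole in mice 1 to 4, and 519.6, 185, 388 and 518 CPM in 4n-whole. Its 4n-bottom values were 179, 177, 276 and 348 CPM, and its 4n-top values in mice 2 to 4 were 193, 463 and 495 CPM. Cyp1a2 was the member whose libraries did not overlap between 2n-whole and any 4n population. Among all tested genes 2.71%, 1.69% and 4.82% were higher without overlap in 4n-whole, 4n-bottom and 4n-top.

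Cyp2a5, the mouse coumarin hydroxylase and counterpart of the human nicotine-oxidising CYP2A6, lies on chromosome 7 from 26534730 to 26542973 (+ strand, 9 exons, ENSMUSG00000005547.16). It had 17.0, 47.2, 69.7 and 71.9 CPM in 2n-whole and 70.4, 94.1, 217 and 232 CPM in 4n-whole. Its 4n-bottom values were 27.0, 78.6, 169 and 156 CPM, and 4n-top had 75.8, 226 and 203 CPM in mice 2 to 4. Mouse 1 had the lowest Cyp2a5 level in each population in which it was measured, and its 4n-whole library matched the 2n-whole levels of mice 3 and 4. Only against 4n-top did the 2n-whole libraries not overlap for this gene. Of all tested genes 4.82% were higher without overlap in 4n-top. That population has no library of mouse 1, and in mice 2 to 4 the 4n-whole and 4n-bottom libraries also lay above every 2n-whole library. Cyp2a5 has close relatives that can share reads with it, and how multi-mapping reads were counted is not given in the sources used here. Its counts are therefore uncertain against those of Cyp2a4, which lies 528136 bases away.

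Por lies on chromosome 5 from 135698887 to 135764182 (+ strand, 16 exons, ENSMUSG00000005514.16) and overlaps Tmem120a and non-coding models on the other strand. Its level was 144, 169, 267 and 276 CPM in 2n-whole and 211, 242, 432 and 499 CPM in 4n-whole. The 4n-bottom libraries had 135, 209, 402 and 376 CPM, and mice 2 to 4 had 228, 464 and 456 CPM in 4n-top. Differences between mice were as wide as those between populations, so the groups overlapped, while each 4n-whole and 4n-top library exceeded the 2n-whole library of its mouse. In 4n-bottom this was so in 3 of 4 mice.

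Ahr lies on chromosome 12 from 35547973 to 35585057 (− strand, 11 exons, ENSMUSG00000019256.19). Its level was 7.15, 12.6, 22.015 and 15.3 CPM in 2n-whole and 24.5, 18.2, 37.9 and 28.9 CPM in 4n-whole. The 4n-bottom libraries had 16.3, 13.9, 27.5 and 17.9 CPM, and mice 2 to 4 had 15.2, 44.9 and 24.4 CPM in 4n-top. All 11 4n libraries exceeded the 2n-whole library of their own mouse, with overlap across mice. Arnt, whose product also pairs with hypoxia-inducible factors, lies on chromosome 3 from 95341365 to 95404551 (+ strand, 22 exons, ENSMUSG00000015522.21). Its 15 libraries all lay between 49.4 and 73.6 CPM, with means of 61.6 ± 9.49 (SD, n = 4) in 2n-whole, 66.6 ± 5.46 (n = 4) in 4n-whole, 66.4 ± 5.10 (n = 4) in 4n-bottom and 61.0 ± 8.34 (n = 3) in 4n-top.

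**Figure D2:**
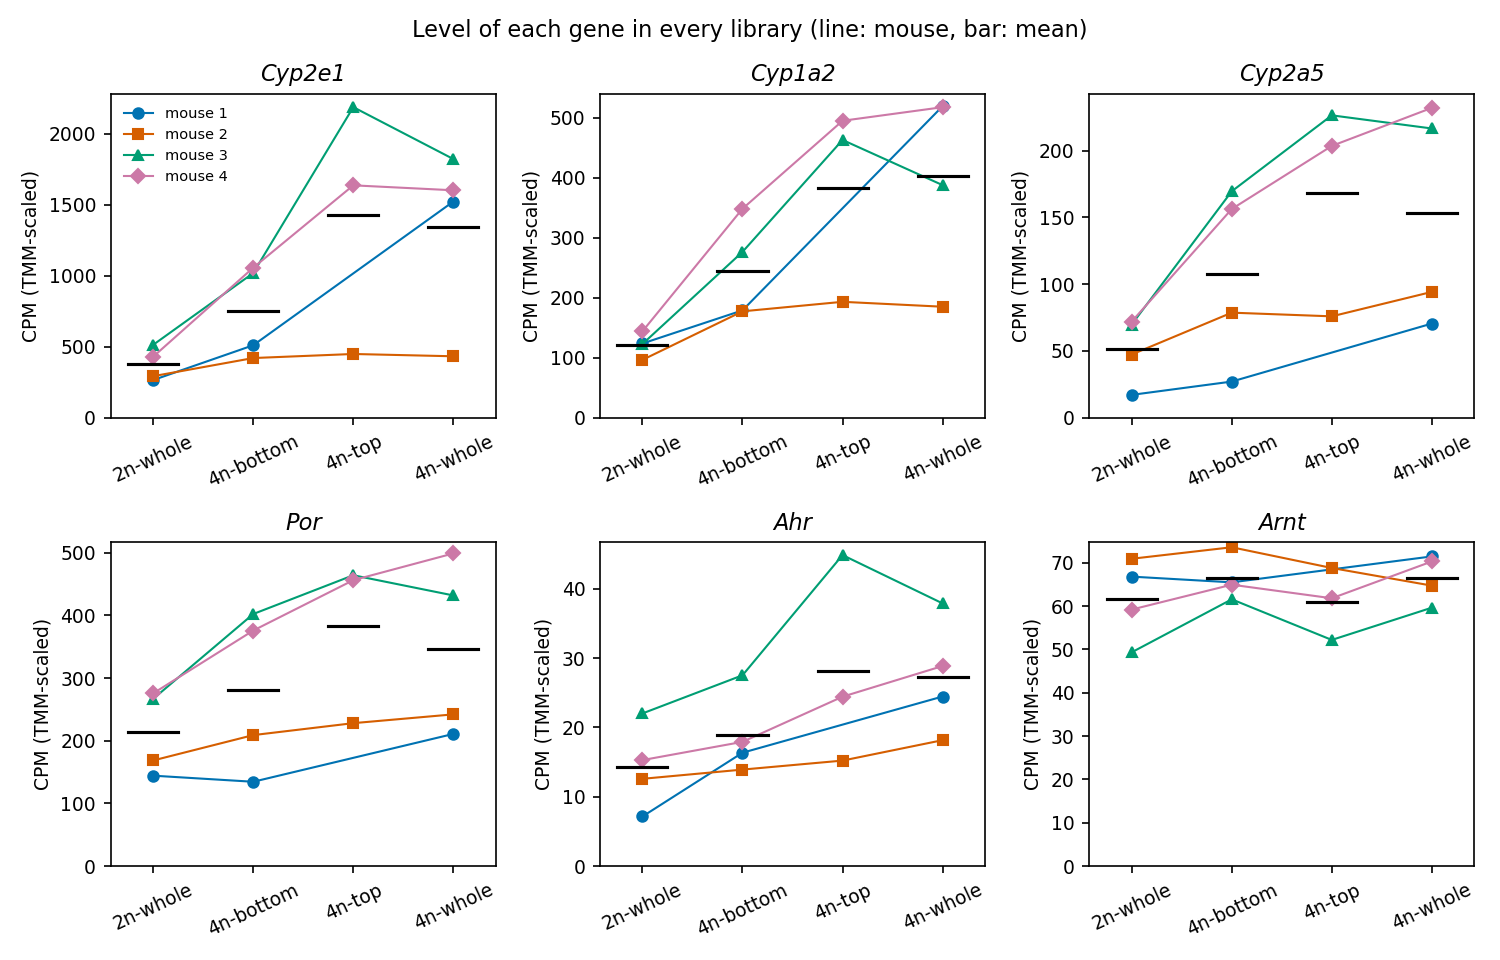
Level of each of the 6 genes (y axis, TMM-scaled CPM, linear from 0) in the 4 populations (x axis), with a point per library, lines joining the libraries of a mouse and black bars at the group means. For the 3 P450 genes the lines of mice 3 and 4 climb steeply from 2n-whole to 4n-top while those of mouse 2 stay nearly flat across the 4n populations; mouse 1 has no 4n-top point.

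Levels were compared between genes per kilobase of annotated exon. By mean CPM per kilobase the order in 2n-whole was Cyp2e1 (133 ± 41.4), Cyp1a2 (59.7 ± 9.60), Por (41.8 ± 13.1), Cyp2a5 (24.8 ± 12.3), Arnt (6.59 ± 1.02) and Ahr (2.31 ± 1.00), each as SD with n = 4. Cyp1a2, Por and Cyp2a5 were neighbours separated by about their spread. This order depends on the length used, since per kilobase of the longest transcript Por (72.8) stood above Cyp1a2 (61.9) in 2n-whole and above Cyp2a5 in 4n-whole (118 against 75.4) and 4n-top (130.3 against 82.9). In 4n-whole Cyp2e1 reached 476 ± 220 and Cyp1a2 198 ± 77.4 CPM per kilobase (n = 4), while Cyp2a5 (73.9 ± 39.9) and Por (67.6 ± 27.6) were within their spread of each other. In 4n-top the same order held, with Cyp2e1 at 504 ± 315, Cyp1a2 at 188 ± 81.5, Cyp2a5 at 81.3 ± 39.1 and Por at 74.8 ± 26.2 (n = 3), and in 4n-bottom Por (54.8 ± 25.3) and Cyp2a5 (52.0 ± 32.4) did not differ beyond their spread. Ahr stayed below Arnt in all 4 populations, at 4.42 ± 1.34 against 7.12 ± 0.584 CPM per kilobase in 4n-whole.

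The first question was which of these genes differ with ploidy. Cyp2e1, Cyp1a2 and Cyp2a5 rose about as much as one another in 4n-whole relative to 2n-whole, Ahr and Por rose less, and Arnt did not pass the test. A gene was called when its adjusted p was under 0.05 and its log2 fold change was beyond 0.5 in either direction, in edgeR's quasi-likelihood test with the mouse in the fit. By this rule 5 of the 6 genes were called, all higher in 4n-whole, against 3.47% of all tested genes (607 of 17488) called in either direction and 1.74% called higher. The log2 fold changes were 1.71 ± 0.19 (SE) for Cyp2e1 (edgeR adjusted p = 1.35e-06), 1.65 ± 0.15 for Cyp1a2 (adjusted p = 9.1e-08) and 1.60 ± 0.15 for Cyp2a5 (adjusted p = 7.05e-08). That of Ahr was 0.98 ± 0.16 (adjusted p = 3e-04) and that of Por 0.65 ± 0.10 (adjusted p = 7.74e-05). For Arnt it was 0.12 with a 95% interval of -0.08 to 0.32 (adjusted p = 0.53). The median over the 6 genes was 1.29, against -0.01 over all tested genes. With bulk RNA, fewer cells of a type and less RNA of a gene per cell cannot be told apart. When the mouse was left out of the fit, the block that pairs the populations was lost and only Cyp1a2 stayed called, with a log2 fold change of 1.73 (adjusted p = 0.02), while Cyp2e1 had 1.84 (adjusted p = 0.098).

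In 4n-bottom, the fraction enriched for binucleated cells, the 3 P450 genes were again higher than in 2n-whole, with smaller differences. Cyp2e1 had a log2 fold change of 0.91 ± 0.19 (edgeR adjusted p = 0.0153), Cyp1a2 0.98 ± 0.15 (adjusted p = 0.000569) and Cyp2a5 0.95 ± 0.14 (adjusted p = 0.000442). Por, at 0.31 (95% interval 0.12 to 0.51, adjusted p = 0.214), and Ahr, at 0.44 (0.12 to 0.77, adjusted p = 0.309), did not pass, and Arnt was at 0.12 (-0.08 to 0.32, adjusted p = 0.731). These were 3 of 6 genes, against 0.463% of all tested genes called and 0.234% called higher. Cyp2e1 lost its call without mouse 4 (0.77, edgeR adjusted p = 0.072) and in DESeq2 with the mouse in the fit (0.89, adjusted p = 0.15). Without the mouse as a block none of the 6 was called here by edgeR, and their smallest adjusted p was 0.87.

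In 4n-top 5 of 6 genes were called higher than in 2n-whole, against 0.961% of all tested genes called and 0.44% called higher. The log2 fold changes were 1.63 ± 0.20 for Cyp2e1 (edgeR adjusted p = 1.42e-05), 1.58 ± 0.16 for Cyp1a2 (adjusted p = 2.23e-06) and 1.32 ± 0.16 for Cyp2a5 (adjusted p = 6.57e-06). Ahr was higher by 0.82 ± 0.17 (adjusted p = 0.00874) and Por by 0.59 ± 0.11 (adjusted p = 0.00151), while Arnt was at 0.01 (95% interval -0.21 to 0.23, adjusted p = 0.983). Ahr lost its call without mouse 3 (0.68, edgeR adjusted p = 0.15) and Por without mouse 4 (0.54, adjusted p = 0.072). Without the mouse as a block none was called, with adjusted p from 0.066 for Cyp1a2 to 0.99 for Arnt. The 3 comparisons against 2n-whole share its 4 libraries, so their likeness is not independent.

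**Figure D3:**
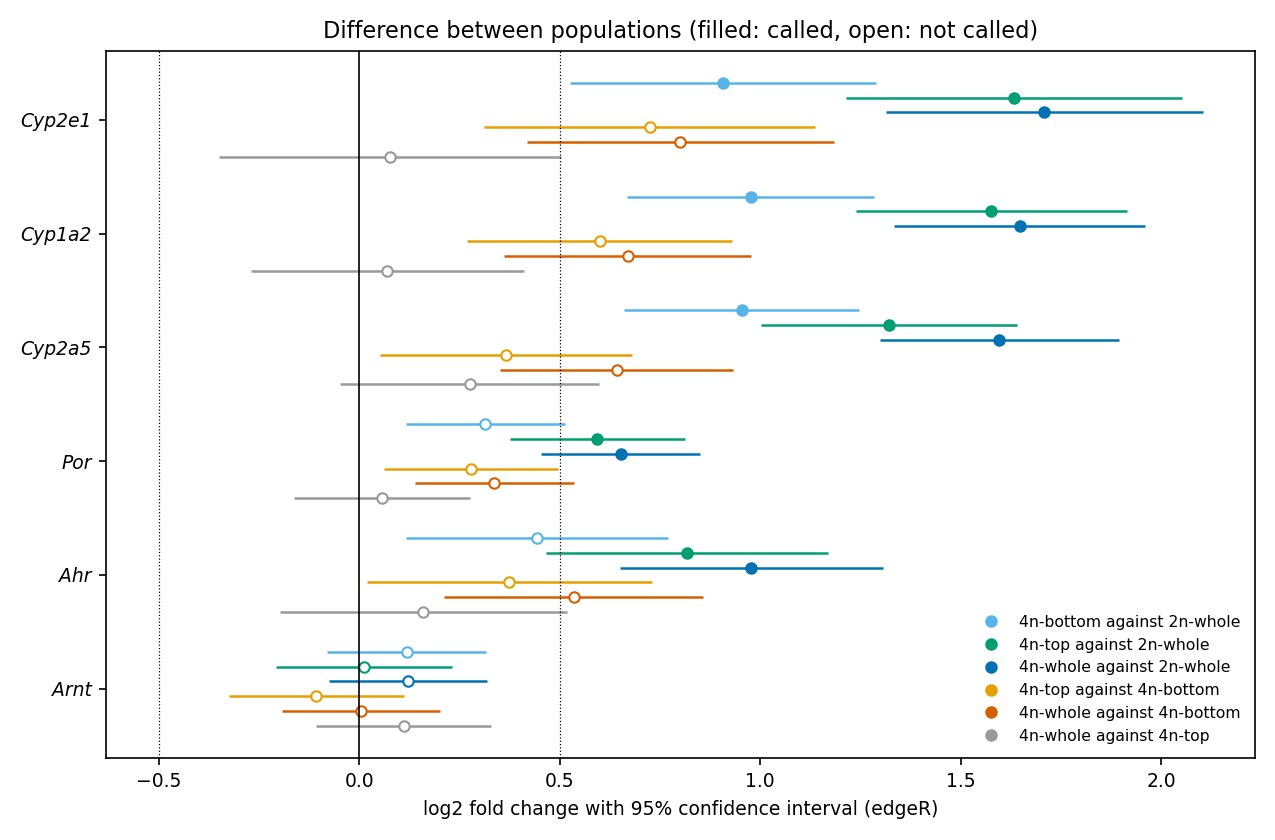
Log2 fold change from edgeR (x axis, with 95% confidence intervals as lines) of each gene (y axis) in the 6 comparisons between populations, with colours for comparisons, filled points for called genes and dotted lines at 0.5 in either direction. Against 2n-whole the P450 genes lie between 0.91 and 1.71, and Arnt stays around 0 in every comparison.

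The next question was whether the genes differ between the 4n fractions, which share ploidy and differ in their share of binucleated cells. No member was called in 4n-top against 4n-bottom, where 0.0114% of all tested genes were called (2 of 17488). Cyp2e1 was at a log2 fold change of 0.72 (95% interval 0.31 to 1.14, unadjusted p = 0.00129, edgeR adjusted p = 0.907) and Cyp1a2 at 0.60 (0.27 to 0.93, adjusted p = 0.907). Cyp2a5 was at 0.37 (0.05 to 0.68), Por at 0.28 (0.06 to 0.50), Ahr at 0.37 (0.02 to 0.73) and Arnt at -0.11 (-0.32 to 0.11), each with an adjusted p of 1. The unadjusted p in edgeR was under 0.05 for 5 of the 6 genes, as for 2.79% of all tested genes. Within mice, Cyp2e1 was 1.07, 2.15 and 1.55 times as high in 4n-top as in 4n-bottom in mice 2, 3 and 4, and Cyp1a2 1.09, 1.68 and 1.42 times. Cyp2a5 was lower in 4n-top in mouse 2 (0.965 times) and higher in mice 3 and 4 (1.34 and 1.30 times). Apart from Cyp2a5 and Arnt, the genes were higher in 4n-top in 3 of 3 mice, as were 10.8% of all tested genes.

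Mouse 2 stood apart in these comparisons. Its 3 4n libraries had nearly the same Cyp2e1 level, at 420 to 448 CPM, and nearly the same Cyp1a2 level, at 177 to 193 CPM. Its 4n-whole library was the shallowest of the 15 and had the lowest mitochondrial share, 8.84%, while its 4n-top and 4n-bottom libraries were among the deepest. Without mouse 2, 2 of the 6 genes were called higher in 4n-top than in 4n-bottom by edgeR, Cyp2e1 at 0.98 (adjusted p = 1.9e-06) and Cyp1a2 at 0.80 (adjusted p = 0.00048), with 29 genes called in all. That refit had only mice 3 and 4 in 4n-top. It left out the mouse with the smallest ratios of these same genes, so it is not a separate test of them. Without mouse 3 or mouse 4 none of the 6 was called. In a fit of the compared populations only, Cyp2e1 was called (0.61, edgeR adjusted p = 0.029), with 15 genes called in all. Without the filter on low counts Cyp2e1 and Cyp1a2 were called (edgeR adjusted p = 4.4e-12 and 7.9e-06), with 25 genes called in all. The counts of both genes were those of the main fit, where the edgeR adjusted p was 0.907 for each. Why the filter moved these values so far was not tested.

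**Figure D4:**
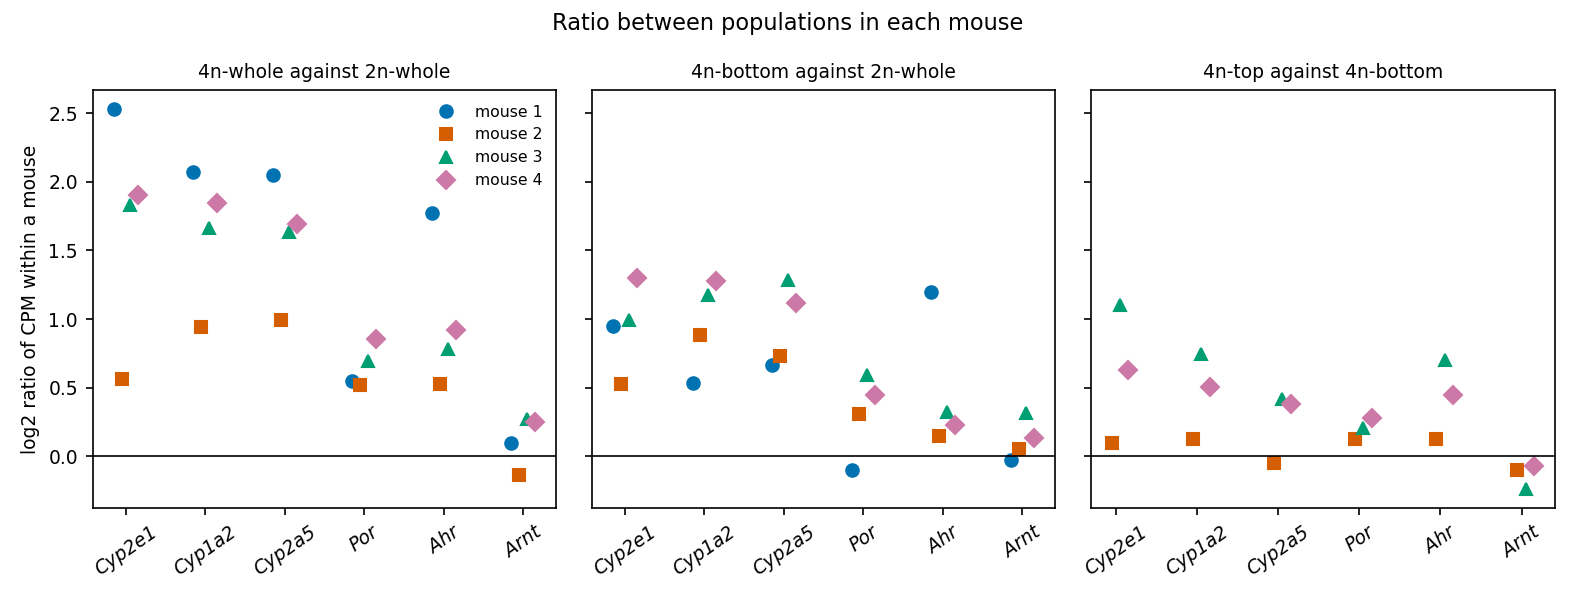
Log2 ratio of CPM between populations within each mouse (y axis) for the 6 genes (x axis) in 3 comparisons, with colours and symbols for mice and 0 as no difference. Mouse 2 has the smallest P450 ratios in 4n-whole against 2n-whole and lies near 0 in 4n-top against 4n-bottom, where mouse 1 has no value.

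In 4n-whole against 4n-bottom, Cyp2e1 was at 0.80 ± 0.19 (edgeR adjusted p = 0.183), Cyp1a2 at 0.67 ± 0.15 (adjusted p = 0.151) and Cyp2a5 at 0.64 ± 0.14 (adjusted p = 0.151). Each of the 3 was higher in 4n-whole in 4 of 4 mice, as were Por (0.34, adjusted p = 0.472) and Ahr (0.53, adjusted p = 0.492), and 5.48% of all tested genes were higher in every mouse. None of the 6 was called, with 0.00572% of all tested genes called. By edgeR, the 3 P450 genes were called without mouse 2, at 1.02, 0.87 and 0.77, with 29 genes called in all. They were also called without mouse 3, at 0.80, 0.74 and 0.74, with 65 genes called in all. None of the 3 was called without mouse 1 or mouse 4, where 0 and 1 genes were called in all. In 4n-whole against 4n-top none was called, as for all tested genes (0%, with 700 genes at an unadjusted p under 0.05 in edgeR and 40 called by DESeq2). There the intervals were -0.35 to 0.50 for Cyp2e1, -0.27 to 0.41 for Cyp1a2 and -0.05 to 0.60 for Cyp2a5. In mice 2, 3 and 4 the Cyp2e1 level of 4n-whole lay between those of 4n-bottom and 4n-top, while Cyp1a2 in mouse 4 and Cyp2a5 in mice 2 and 4 were above both fractions in 4n-whole.

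The balance between the P450 genes and their reductase was followed as a ratio of counts within each library. Cyp2e1 had 1.76 ± 0.157 (SD, n = 4) counts per Por count in 2n-whole, in a narrow range of 1.56 to 1.92. In 4n-whole it had 4.11 ± 2.30 (n = 4), from 1.78 in mouse 2 to 7.22 in mouse 1, in 4n-bottom 2.78 ± 0.747 (n = 4) and in 4n-top 3.42 ± 1.38 (n = 3). The 4n-top mean lacks mouse 1, which had the highest ratio in 4n-whole and 4n-bottom. In mice 2, 3 and 4 the ratio was 1.78, 4.22 and 3.21 in 4n-whole and 1.97, 4.715 and 3.59 in 4n-top. Cyp1a2 to Por went from 0.602 ± 0.176 in 2n-whole to 1.29 ± 0.790 in 4n-whole (n = 4), and Cyp2a5 to Por from 0.230 ± 0.0754 to 0.422 ± 0.0753 (n = 4). The Cyp2a5 ratios of 2n-whole (at most 0.280) and 4n-whole (at least 0.334) did not overlap, whereas those of Cyp1a2 did (up to 0.857 in 2n-whole and from 0.764 in 4n-whole), and in 4n-bottom the Cyp2a5 ratio went down to 0.200, within the 2n-whole range. These ratios were not tested, and how many other gene pairs are free of overlap was not computed. The rise of Cyp2a5 to Por restates the log2 fold changes of 1.60 and 0.65 in 4n-whole against 2n-whole. Ahr to Arnt was 0.247 ± 0.146 in 2n-whole and 0.417 ± 0.155 in 4n-whole (n = 4), with overlap.

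Other genes listed as partners of P450 enzymes in general were read beside Por. Of 7 redox partners of P450 enzymes (Cyb5a, Cyb5b, Cyb5r3, Pgrmc1, Pgrmc2, Fdx1 and Fdxr), all of which were tested, 0 were called in any of the 6 comparisons by edgeR, and their median log2 fold change in 4n-whole against 2n-whole was 0.11, with 2 of them at an unadjusted p under 0.05 as for 20.4% of all tested genes, and with 3.47% of all genes called a list of this size would hold few calls either way. Fdx1, the mitochondrial ferredoxin, had 0.41 (edgeR adjusted p = 0.0174), under the fold limit, and 1 of the 7 was called in that comparison without mouse 3. Of 5 genes that supply NADPH (G6pdx, Pgd, Me1, Idh1 and H6pd) 0 were called in any comparison by edgeR, with a median of -0.05 and 1 at an unadjusted p under 0.05 in 4n-whole against 2n-whole. None of the 3 tested paralogs of Cyp2a5 was called by edgeR, while ComBat-seq with DESeq2 called 1 of them in 4n-whole and 1 in 4n-top against 2n-whole. Cyp2a4, a steroid hydroxylase nearly identical to Cyp2a5, had a log2 fold change of -0.77 (95% interval -1.34 to -0.21, edgeR adjusted p = 0.0971), Cyp2a12 -0.22 (adjusted p = 0.142) and Cyp2a22 0.18 (adjusted p = 0.789). Counts of Cyp2a5 per count of Cyp2a4 ran from 3.38 to 18.1 in 2n-whole and from 20.7 to 106 in 4n-whole.

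Other targets of the receptor were read beside Ahr. Of 10 listed targets 6 were tested, and 0 were called in any of the 6 comparisons by edgeR, with a median of 0.06 in 4n-whole against 2n-whole. At 3.47% of all genes called there, a list of this size would hold few calls either way. None of the 6 had an unadjusted p under 0.05 in edgeR, against 20.4% of all tested genes. Cyp1a1, the most inducible target and the head-to-head neighbour of Cyp1a2, had between 0 and 30 counts per library and a log2 fold change of 1.11 with a 95% interval of -1.33 to 3.56, so a difference was not detectable at this depth. Tiparp, which shuts the receptor off, was at 0.02, Nqo1, a quinone reductase, at -0.29 and Ugt1a6a, a glucuronosyltransferase, at 0.18. Cyp1b1, Ahrr, Cyp2s1 and Aldh3a1 had too few counts to be tested. Of 7 receptor chaperones and related bHLH-PAS proteins 6 were tested and 0 were called in any comparison by edgeR, with a median of 0.01 and 0 at an unadjusted p under 0.05 in 4n-whole against 2n-whole. In DESeq2 with the mouse in the fit, 0 genes of these lists of targets, chaperones, redox partners, NADPH supply and paralogs were called either. The chaperone genes Hsp90aa1, Hsp90ab1 and Ptges3 lay between -0.01 and 0.15.

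Among 11 regulators known to act on these P450 genes, 1 rose and 1 fell in 4n-whole against 2n-whole, with a median of 0.08. Of all tested genes 3.47% were called there. An unadjusted p under 0.05 in edgeR was found for 5 of the 11, against 20.4% of all tested genes. Nr1i3, the constitutive androstane receptor, which induces Cyp2a5 and Por, was higher by 1.53 in 4n-whole (edgeR adjusted p = 6.72e-07), by 0.88 in 4n-bottom (adjusted p = 0.00519) and by 1.16 in 4n-top (adjusted p = 0.000158). In mice 1 to 4 its levels were 2.83, 5.34, 17.3 and 10.7 CPM in 2n-whole and 12.6, 13.6, 37.2 and 31.9 CPM in 4n-whole. Ppargc1a, a coactivator of fasting metabolism, was lower in 4n-whole, at -0.59 (adjusted p = 0.00682), and was not called by this fit in the other comparisons. Without the mouse as a block, 0 of the 11 were called in any comparison with 2n-whole. In 4n-whole against 2n-whole the count of 2 became 1 without mouse 4 or with the compared populations only and 3 without mouse 1 or mouse 3, and in 4n-top the count of 1 became 2 without mouse 2 and with DESeq2, its size factors or ComBat-seq. Hnf4a, which sets hepatocyte identity, was at 0.08, and Ctnnb1 and Tcf7l2, the β-catenin gene and its DNA-binding partner, were at 0.04 and -0.13.

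Genes that mark the 2 ends of the lobule were read beside the P450 genes, since the libraries carry no position. Of 10 pericentral landmarks 9 rose in 4n-whole against 2n-whole, with a median of 1.59, and 5 rose in each of 4n-bottom and 4n-top. Of all tested genes 1.74%, 0.234% and 0.44% were called higher in 4n-whole, 4n-bottom and 4n-top against 2n-whole. The glutamine synthetase gene Glul was higher by 1.30 in 4n-whole, the ornithine aminotransferase gene Oat by 1.61, the glutamate transporter gene Slc1a2 by 1.58, the transcription factor gene Tbx3 by 2.07, Gulo, which completes vitamin C synthesis, by 1.57 and Cyp7a1, the rate-limiting enzyme of bile acid synthesis, by 1.54 (edgeR adjusted p from 2.43e-07 to 4.77e-06). Axin2 and Lgr5, targets of Wnt signalling, were higher by 1.62 and 2.13, and the hepatokine gene Lect2 by 1.03 (adjusted p = 0.00228, 0.0489 and 0.0148), while Rhbg, an ammonium transporter gene, was at 3.17 without a call (adjusted p = 0.338). Without the mouse as a block, edgeR called 2, 0 and 1 of the 10 in 4n-whole, 4n-bottom and 4n-top against 2n-whole. In 4n-top against 4n-bottom the landmarks split. Glul was lower in 4n-top (-0.90, edgeR adjusted p = 0.0499), Slc1a2 was at -1.08 (adjusted p = 0.0663), Oat was at 0.02, and Cyp7a1 was at 0.76 and Tbx3 at 0.66 without a call, beside 0.72 for Cyp2e1. Of the 10, 3 were called without mouse 2 and 0 without mouse 3 or mouse 4 or without the block. Among 10 periportal landmarks 3 fell in 4n-whole against 2n-whole, Cyp2f2 at -0.73, Cdh1 at -0.63 and Hsd17b13 at -0.61, and Cdh1 also fell in 4n-top (-0.58). Called in either direction were 3.47% and 0.961% of all tested genes in 4n-whole and 4n-top against 2n-whole. Without the mouse as a block 0 of the 10 were called in either comparison, and the count in 4n-top was 0 without mouse 4, 4 without mouse 2 and 3 with ComBat-seq and DESeq2. The summed pericentral landmarks of mouse 2 were 244, 252 and 208 CPM in 4n-whole, 4n-bottom and 4n-top.

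**Figure D5:**
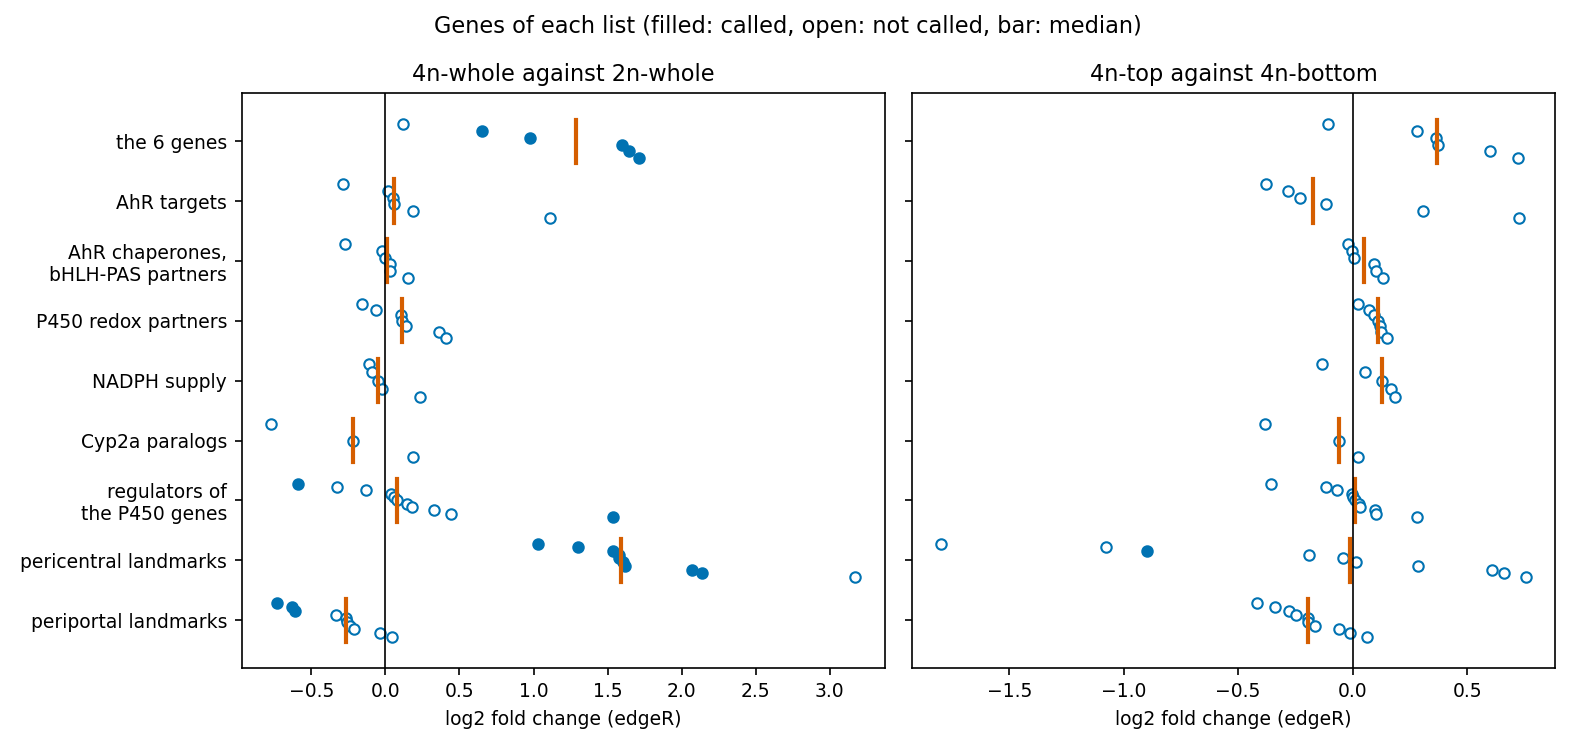
Log2 fold change from edgeR (x axis) of the tested genes of each list (y axis), as points that are filled where called, with bars at list medians, in 4n-whole against 2n-whole (left) and 4n-top against 4n-bottom (right). On the left the 6 genes and the pericentral landmarks (medians 1.29 and 1.59) stand to the right of 0 while the targets and chaperones of the receptor, redox partners and NADPH genes centre near 0.

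Across the 15 libraries, with mouse differences removed, the P450 genes varied together. Pearson's r on log2 CPM was 0.983 for Cyp2e1 with Cyp1a2, 0.988 for Cyp1a2 with Cyp2a5 and 0.973 for Cyp2e1 with Cyp2a5. With Por these genes had r of 0.907 to 0.957 and with Ahr 0.869 to 0.915, whereas r with Arnt was at most 0.509. With mouse differences kept, Cyp1a2 with Cyp2a5 had 0.748 and Cyp2a5 with Por 0.959, and r with Arnt turned negative for all 5 other genes, from -0.47 to -0.012. These values are descriptions over libraries that share mice, populations and depth. Among 7371 well-expressed genes, the 5 most like Cyp2e1 were Cyp2c37, Cyp2c29 and Cyp2c50, which belong to the Cyp2c family of drug-metabolising P450 genes, Rgn, a calcium-binding lactonase of vitamin C synthesis, and Cyp1a2 (r from 0.983 to 0.992). Those most like Cyp1a2 were Cyp2a5, Cyp2c37, Cyp2e1, Elovl3, a fatty acid elongase, and Gulo (0.973 to 0.988). Those most like Cyp2a5 were Cyp1a2, Gulo, Cyp2c37, Cyp2e1 and Oat (0.968 to 0.988). With mouse differences kept, none of these 5 stayed for Cyp2a5, and the genes most like Cyp2e1 and Cyp1a2 changed in part. In 4n-top against 4n-bottom Rgn was at 0.86 (edgeR adjusted p = 0.396), Cyp2c29 at 0.81 (adjusted p = 1), Cyp2c50 at 0.73 (adjusted p = 0.468), Elovl3 at 0.51 and Cyp2c37 at 0.48 (adjusted p = 1 for both), and none was called.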

How the data were processed

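RNA of sorted hepatocytes was sequenced from a stranded SMART-Seq library. Per the submitters' processing notes, which name STAR (2.7.11a), featureCounts and GRCm39, the authors deposited raw read counts per gene symbol, with no normalization. The annotation, strand setting and handling of read pairs and of multi-mapping reads are not given in the sources used here, so genes overlapping on the other strand could share reads. Between 74.2% and 81.4% of counts from 1 to 10 were even numbers. If the reads of a pair were counted separately, the detection limit of 3 counts would stand for fewer than 3 fragments. Populations and mice were taken from the labels, where the subject number names the animal.

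Counts were filtered with filterByExpr (minimum count 10, minimum total 15), scaled by TMM and fitted with edgeR 4.0.16 (quasi-likelihood F test, R 4.3.3) over all 15 libraries with population and mouse as terms, and p-values were adjusted by Benjamini-Hochberg over 17488 genes. The mouse pairs the libraries by design, and the 21 same-mouse pairs of residuals had a mean r of 0.158 (0.084 to 0.227). No 2 libraries were identical. Ratios, CPM and per-kilobase levels came from the same counts, with exon lengths and coordinates from GENCODE M39 on GRCm39. Likeness used log2 CPM (prior count 2, mean of at least 3) with mouse effects removed by limma 3.58.1.

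The 6 genes and all lists were chosen with earlier results of these data known. Members of the pathway lists were named with values where called in at least 1 comparison, as were the 5 genes most like each P450 gene; other list genes (Fdx1, Cyp2a4, Cyp2a12, Cyp2a22, Cyp1a1, Tiparp, Nqo1, Ugt1a6a, the Hsp90 genes, Ptges3, Hnf4a, Ctnnb1 and Tcf7l2) were singled out after their values were seen. Some items of the lists and motifs are not reported here. Alternatives were no mouse term, DESeq2 1.42.0 size factors, DESeq2 with the mouse term, ComBat-seq (sva 3.50.0) before DESeq2, no filter, the compared populations only and leaving out each mouse. A refit without mitochondrial genes was chosen after seeing the data.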

Additional observations from a re-analysis of the deposited data

Results flagged for a closer look

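The Cyp2e1 level of the 4n-whole library of mouse 2, 432 CPM, lay far below the other 3 libraries of its group, at 1523 to 1823 CPM. On the log2 CPM scale its gap to the nearest of them was 0.875 of the whole range of the group, above Dixon's 95% critical value of 0.829 for 4 samples, while on the CPM scale it was 0.785, below that value. Of 18 groups of 4 libraries tested over the 6 genes this was the 1 that passed on the log2 scale, and chance gives about 1 in 20. The library had the lowest total count and the lowest mitochondrial share (8.84%), whose part in the value was not tested.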

How the results depend on the processing

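In comparisons against 2n-whole the calls of the P450 genes held with DESeq2 size factors, no filter on low counts, ComBat-seq before DESeq2, the compared populations only and mitochondrial genes left out, and the exceptions among the other alternatives stand beside the results. The pairing by mouse mattered most. Without the replicate block the number of the 6 genes called became 1, 0 and 0 in 4n-whole, 4n-bottom and 4n-top against 2n-whole, and the number of all genes called became 40, 0 and 2, and 0 in 4n-top and 0 in 4n-whole against 4n-bottom. Why these counts moved was not tested beyond these refits.

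For all genes, counts are given in the order 4n-whole, 4n-bottom and 4n-top against 2n-whole, then 4n-top and 4n-whole against 4n-bottom and 4n-whole against 4n-top. The main counts were 607, 81, 168, 2, 1 and 0. ComBat-seq with DESeq2 gave 1184, 309, 595, 19, 39 and 3. DESeq2 with the replicate block moved the last 5 to 143, 329, 49, 44 and 40, and no filter on low counts moved them to 145, 261, 25, 45 and 5. The compared populations only gave 305 in the first, 300 in the third, 15 in the fourth and 0 in the fifth. In 4n-whole against 4n-bottom, DESeq2 size factors gave 3 and leaving out mitochondrial genes gave 3. Leaving out each mouse gave ranges of 244 to 1025, 49 to 111, 98 to 238, 0 to 29, 0 to 65 and 0 to 1. Of the 6 genes, it left 5 called in 4n-whole, 2 to 3 in 4n-bottom and 4 to 5 in 4n-top against 2n-whole, and 0 to 2 in 4n-top and 0 to 3 in 4n-whole against 4n-bottom. In 4n-top against 4n-bottom 2 of the 6 were called with no filter and 1 with the compared populations only. In 4n-whole against 4n-bottom 4 were called with no filter and 1 with ComBat-seq.

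Among the 6 genes signs turned in differences near 0. Arnt in 4n-top against 2n-whole became -0.0147 without the block, -0.012 with DESeq2 size factors, -0.0121 in DESeq2, -0.0077 with ComBat-seq and -0.0022 without mitochondrial genes, and ran from -0.0172 to 0.0261 on leaving out each mouse, -0.0015 among them. In 4n-whole against 4n-bottom leaving out each mouse moved Arnt from -0.0323 to 0.073, with -0.0292 without mouse 4. In 4n-whole against 4n-top, without the block Cyp2e1 was -0.0828, Cyp2a5 -0.1363, Por -0.1458 and Ahr -0.0385, with the compared populations only Cyp2e1 was -0.1008 and Cyp1a2 -0.0693, and on leaving out each mouse Cyp2e1 ran from -0.1232 to 0.2845 and Cyp1a2 from -0.0833 to 0.2384.

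Of the 5 genes most like each P450 gene, 3, 2 and 0 were shared for Cyp2e1, Cyp1a2 and Cyp2a5 with the mouse effect kept and 2, 3 and 2 with Spearman's rho. Per kilobase of the longest transcript, Cyp2e1 was 178 CPM in 2n-whole, Por 72.8, 118, 95.4 and 130.3 and Arnt 12.9, 14.0, 14.0 and 12.8 CPM, with 2n-whole first, then 4n-whole, 4n-bottom and last 4n-top. Depth limits Cyp1a1 and the untested targets of the receptor.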
